A study of Mus musculus with 6 samples.

Results

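Ligands and receptors of the TNF superfamily were followed in cultured mouse brain endothelial cells labelled as wild-type control or as double knockout for Erg and Fli1. The members were the gene rows whose symbol begins with Tnfsf or Tnfrsf, together with Tnf, Lta, Ltb, Fasl, Cd70, Cd40lg, Eda, Cd40, Fas, Ltbr, Ngfr, Cd27, Eda2r, Edar and Relt. Members made up 48 of the 52636 gene rows that were counted, and the 40 with at least 10 counts summed over the 6 libraries were analysed. They comprised 15 ligand rows, 6 receptors with a death domain, 3 decoy receptors and 16 other receptors. Among the 15 ligand rows, Tnfsf13os is an antisense gene and Tnfsfm13 a readthrough of Tnfsf12 and Tnfsf13. The 8 rows below the minimum were Cd40lg and Tnfsf14 with 0 counts, Tnfrsf17 with 1, Cd70 with 2, Fasl and Tnfrsf13c with 3 each, and Ngfr and Tnfsf13b with 5 each.

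Most ligands of the superfamily are membrane proteins that act as trimers, either on the cell surface or after they are cut off by proteases. Their receptors bind TRAF adaptors and switch on NF-kB and stress kinases, and those with a death domain can in addition bind adaptors that activate caspases. Decoy receptors bind a ligand and pass on no death signal. In endothelial cells TNF is best known for inducing adhesion molecules and chemokines through NF-kB.

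RNA of polyadenylated transcripts was sequenced in 3 libraries of wild-type control cells and 3 of cells labelled as double knockout for Erg and Fli1 (knockout here), both ETS-family transcription factors. All cultures came from mouse brain and had been given 4-OHT (4-hydroxytamoxifen) to trigger the deletion, the controls included. The RNA came from living cells sorted for the presence of CD31 and VE-cadherin and the absence of CD45. Neither the Cre line and its driver, nor the age of the mice, nor any pooling of animals is given in the sources used here. Xist was at 611 CPM (counts relative to the scaled library size) in control 2 and at 431 and 573 CPM in knockouts 2 and 3, and at most 5.32 CPM in the others, where Ddx3y, a gene of the Y chromosome, was at 110 to 116 CPM. Both groups thus held cells of both sexes, and control 2 was the only female control. Without control 2, the remaining controls 1 and 3 were male, while knockout 1 was male and knockouts 2 and 3 were female. Sex is thus partly mixed with genotype in the fits without control 2, and its part in them was not tested. It is not said otherwise which libraries share an animal or culture, so that p-values measure only the spread between these libraries, which may in part be technical.

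Erg, with 656, 223 and 610 CPM in controls 1 to 3 and 70.2, 88.3 and 109 CPM in knockouts 1 to 3, was lower in the knockout, with a log2 fold change of -2.48 (SE 0.44, adjusted p = 0.0137, edgeR). Fli1 had 82.9, 64.1 and 92.1 CPM against 57.0, 68.5 and 66.7 CPM, groups that overlapped, and a log2 fold change of -0.32 (SE 0.15, adjusted p = 0.181, edgeR). The Erg call was lost without control 3 or any 1 knockout (edgeR adjusted p up to 0.0691), and Fli1 passed without control 2 (log2 fold change -0.48, edgeR adjusted p = 0.003458). Library totals were 17274639 to 19410458 counts. Control 2 stood apart from its group: the chi-square per degree of freedom of its counts was 210 and 191 against controls 1 and 3, which differed from each other by 6.28, and 184 to 195 against the knockouts. The summed CPM of 12 fibroblast markers was 13729 in control 2, 512 and 1303 in controls 1 and 3 and 2184 to 3443 in the knockouts. That of 12 pericyte and smooth muscle markers was 4106, 471 and 582, and 773 to 1567. The 12 endothelial markers summed to 7384 CPM in control 2, 17339 and 17194 CPM in controls 1 and 3 and 3857 to 4757 CPM in the knockouts. Pecam1, which encodes the sorted protein CD31, had 1389 to 3736 CPM in controls and 219 to 376 CPM in knockouts. Macrophage and lymphocyte lists of 12 markers each summed to at most 4.79 and 2.78 CPM in any library, with 3 and 5 of their genes at 0 throughout. A list of 10 astrocyte and neural markers summed to 25.9 to 73.6 CPM in controls and 63.0 to 91.1 CPM in knockouts. All 12 endothelial markers were lower in each knockout than in controls 1 and 3. Of the 12 fibroblast markers 5 were higher in each knockout than in controls 1 and 3 and 1 was lower, and without Dcn the sums were 508 and 1297 CPM in controls 1 and 3 and 841 to 1333 CPM in the knockouts, which overlap. Of the 12 pericyte and smooth muscle markers 7 were higher and 1 was lower. These levels moved with control 2 and in part with the groups, and their part in the results was not tested. In bulk RNA, fewer cells of a type and less RNA per cell cannot be told apart. Results for members are given with and without control 2.

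Of the 40 members 32 had enough counts to be tested. With all 6 libraries 7 of the 32 were higher and 5 were lower in the knockout at an edgeR adjusted p under 0.05. These 12 are 37.5% of those tested, beside 24.7% of all 13901 genes tested (13.1% higher and 11.7% lower). The median log2 fold change of all 32 tested members was 0.29, against 0.003 over all genes tested. It was 0.51 for the 10 tested ligands and -0.08 for the 22 tested receptors. Groups did not overlap in 65.6% of the tested members and in 46.3% of all genes tested. Without control 2, 13 of 33 tested members were higher and 10 lower, 69.7% of them, beside 50.3% of all genes (25.5% higher and 24.8% lower). The median of all 33 tested members was then 0.54 (0.65 for ligands and 0.04 for receptors), against -0.0037 over all genes. All 12 calls held in the same direction without control 2, and 11 more were added. The share of members called was above that of all genes in both fits, which describes these members and was not tested. The low-count filter kept some members, such as Tnfsf8 and Edar, only through the knockout libraries.

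**Figure D1:**
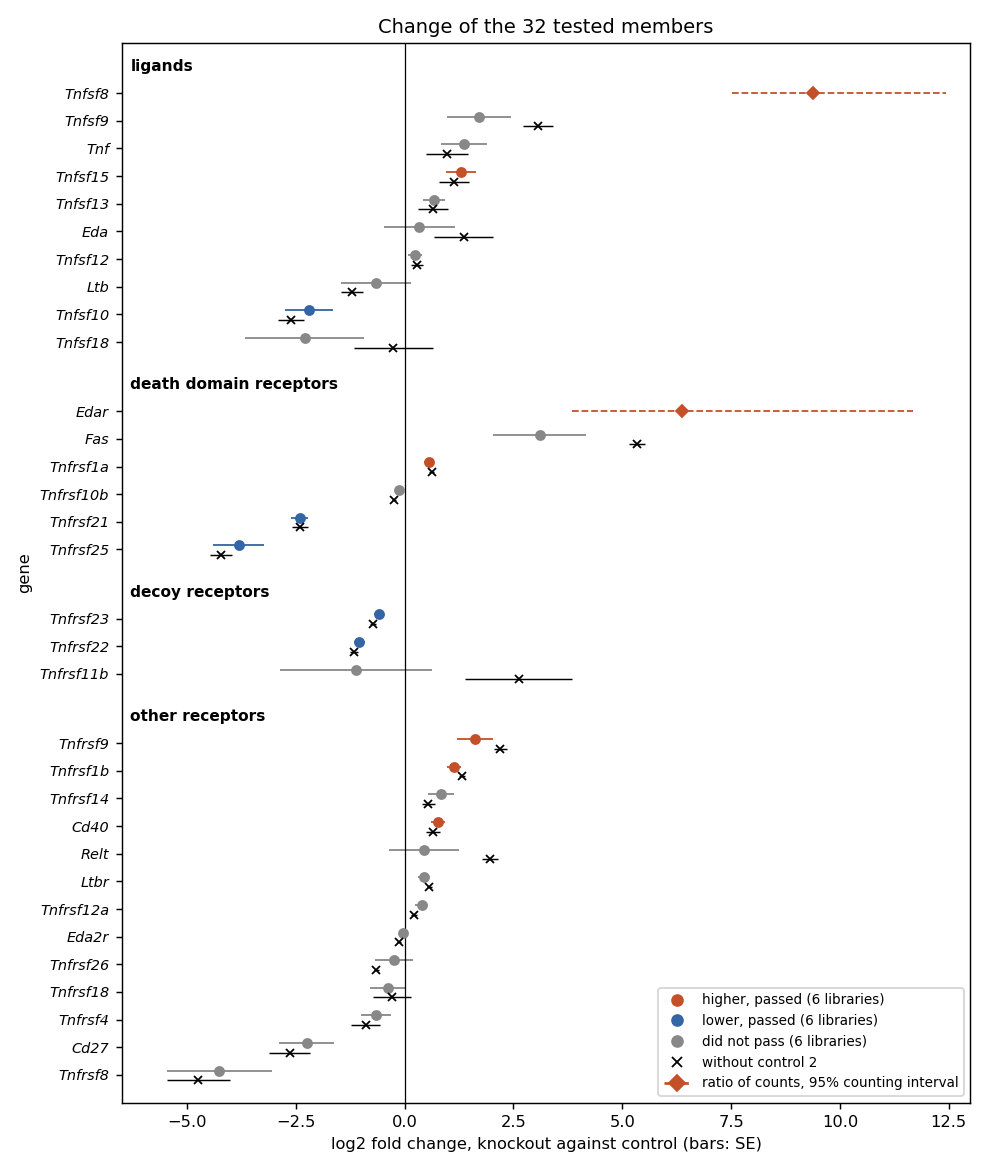
Log2 fold change (knockout against control) of the 32 tested members, grouped by role, with all 6 libraries (circles, bars are SE) and without control 2 (crosses). For Tnfsf8 and Edar the diamond is the ratio of counts with its 95% counting interval; Fas, Relt and Tnfrsf11b are among the members that shift most when control 2 is left out.

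Among the ligands 2 were higher, 1 was lower and 7 of the 10 tested did not pass. The share called was 30%, beside 24.7% of all genes tested. Without control 2 the counts were 3 higher, 2 lower and 6 not passing of 11 tested. That is 45.5% called, below the 50.3% of all genes. Tnfsf8 (ENSMUSG00000028362; GRCm38 chromosome 4, 63831308 to 63861347, minus strand), the ligand of the receptor CD30, had 0, 2 and 0 counts in the controls and 465, 495 and 374 counts in the knockouts. In CPM these were 0, 0.109 and 0 against 23.9, 27.6 and 20.8. The transcript was thus at the limit of detection in each control and well above it in each knockout. The ratio of counts was 670 (95% exact conditional binomial interval 185 to 5538, counting error only), and the edgeR adjusted p was 0.001234. Without control 2, whose 2 counts are the only ones of the controls, the level was at least 299-fold higher, set against a floor of 3 counts over the remaining controls. The call held without any 1 of the 6 libraries (edgeR adjusted p at most 0.0121).

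Tnfsf15, which encodes TL1A, a cytokine made by endothelial cells that binds the receptor DR3, had 1.16, 1.25 and 2.30 CPM in controls and 4.88, 3.52 and 3.23 CPM in knockouts (GRCm38 chromosome 4, 63727084 to 63745113, minus strand). All knockouts lay above all controls at a low level. Its log2 fold change was 1.30 (SE 0.34, adjusted p = 0.0416, edgeR), and 1.13 without control 2. The call was lost without control 1 or any 1 knockout (edgeR adjusted p up to 0.136) and with a minimum of 10 summed counts as the filter (0.0506).

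Tnfsf10, which encodes TRAIL, a ligand that can trigger cell death, moved the other way. It had 24.4, 7.35 and 20.9 CPM in controls and 2.36, 3.35 and 5.74 CPM in knockouts (GRCm38 chromosome 3, 27317028 to 27342427, plus strand). Control 2 was the lowest control and still above each knockout. The log2 fold change was -2.20 (SE 0.55, adjusted p = 0.0364, edgeR), and -2.61 without control 2 (adjusted p = 4.483e-04). Leaving out any 1 library other than control 2 ended the call (edgeR adjusted p up to 0.134), and limma voom did not make it (adjusted p = 0.0773).

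The ligands that did not pass with 6 libraries included Tnf itself, which was near the limit of detection. It had 0.211, 0.109 and 0.493 CPM in controls and 0.565, 0.837 and 0.724 CPM in knockouts, and its fitted log2 fold change was 1.37 (SE 0.53, adjusted p = 0.117, edgeR). These are 15 counts in all controls and 39 in all knockouts. Tnfsf9, the ligand of CD137, had 0.421, 2.23 and 0.329 CPM against 3.80, 2.51 and 3.51 CPM. It passed only without control 2, with a log2 fold change of 3.07 (edgeR adjusted p = 3.719e-04), against 1.71 (adjusted p = 0.146) with it. Of its exonic bases 14.9% overlap Gm11110 on the other strand, and since the strand setting of the counting is unknown its reads could be mixed with those of that gene. Ltb, which encodes lymphotoxin beta, was lower without control 2 by a log2 fold change of -1.21 (edgeR adjusted p = 0.006816). With control 2, which had 0.545 CPM beside 5.90 and 6.08 CPM in controls 1 and 3, it did not pass (-0.65, adjusted p = 0.592); the knockouts had 2.11, 2.23 and 3.62 CPM. Tnfsf12, which encodes TWEAK, had 8.17, 9.26 and 7.56 CPM against 9.81, 11.3 and 8.35 CPM, with a log2 fold change of 0.24 (SE 0.16, adjusted p = 0.317, edgeR). Reads of Tnfsf12 and Tnfsf13 share 48.3% and 60.0% of their exonic bases with the readthrough Tnfsfm13 and could have been split by the counting. Tnfsf13 and Eda had at most 2.01 CPM in any library and did not pass with or without control 2.

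A further pair of ligands was high in control 2. Tnfsf18, the ligand of GITR, had 41.8 CPM in control 2, 0.948 and 6.91 CPM in controls 1 and 3 and 2.16, 6.86 and 1.06 CPM in knockouts. Its log2 fold change was -2.30 (SE 1.37, adjusted p = 0.269, edgeR) and -0.26 without control 2. Tnfsf11, which encodes RANKL, had 16.5 CPM in control 2 and at most 0.976 CPM in the other 5 libraries. It did not pass the low-count filter, and in the fit of all genes with at least 10 summed counts its log2 fold change was -3.73 (SE 1.72, adjusted p = 0.194, edgeR). Both are high in the library with the highest fibroblast and pericyte markers, whose part was not tested. Tnfsf4, Lta, Tnfsf13os and Tnfsfm13 had at most 0.557 CPM in any library, did not pass the low-count filter and were not called in that wider fit.

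**Figure D2:**
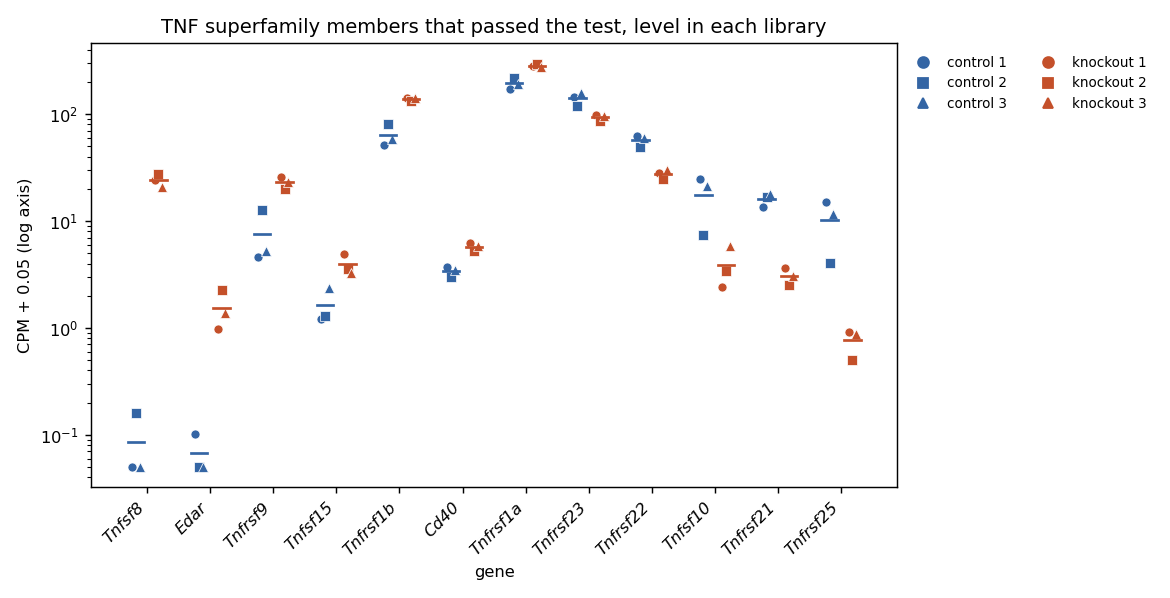
Level of the 12 members that passed the test in each library (CPM + 0.05, log axis), with controls in blue, knockouts in orange, a marker shape per replicate number and a line at each group mean. Knockouts and controls do not overlap for any of the 12, and control 2 is the control nearest to the knockouts for all but Edar, Tnfsf15, Cd40 and Tnfrsf21.

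Of the 6 tested receptors with a death domain, 2 were higher, 2 were lower and 2 did not pass with all libraries. The share called was 66.7%, beside 24.7% of all genes tested. Without control 2 all 6 passed, 3 in each direction, beside 50.3% of all genes. Tnfrsf1a (ENSMUSG00000030341; GRCm38 chromosome 6, 125349362 to 125362484, plus strand), the main TNF receptor of most cells, had 171, 218 and 189 CPM in controls and 278, 296 and 275 CPM in knockouts. Each knockout was above each control. The mean was 193 ± 23.8 CPM (SD, n = 3) in controls and 283 ± 11.1 CPM in knockouts, a log2 fold change of 0.56 (SE 0.10, adjusted p = 0.0154, edgeR). It was 0.62 without control 2 (edgeR adjusted p = 2.105e-04), whereas the call was lost without control 3 or any 1 knockout (adjusted p up to 0.0678).

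Edar (GRCm38 chromosome 10, 58600789 to 58675654, minus strand), the ectodysplasin receptor of skin appendages, had 1, 0 and 0 counts in controls and 18, 40 and 24 counts in knockouts. It reached 0.925 to 2.23 CPM in the knockouts, a low level in each. The ratio of counts was 82.4 (95% exact conditional binomial interval 14.4 to 3293, counting error only; edgeR adjusted p = 0.006428). The call held without any 1 library (edgeR adjusted p at most 0.0311). Its adaptor Edaradd had at most 1.84 CPM in any library and did not pass with 6 libraries (log2 fold change -2.16, SE 0.85, adjusted p = 0.120, edgeR). Without control 2 Edaradd passed as lower (-2.43, SE 0.73, adjusted p = 0.0288, edgeR).

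Fas (GRCm38 chromosome 19, 34290666 to 34327772, plus strand), the receptor of the death ligand FasL, did not pass by edgeR unless control 2 was left out. It had 2.00, 20.2 and 1.21 CPM in controls and 73.1, 64.0 and 63.5 CPM in knockouts. The groups did not overlap, and control 2 was well above the other controls. With all libraries the log2 fold change was 3.10 (SE 1.06, adjusted p = 0.0866, edgeR), and DESeq2 and limma voom called it higher (adjusted p = 0.0285 and 0.0155). Without control 2 it was 5.34 (SE 0.18, adjusted p = 4.378e-06, edgeR). Its ligand, Fasl, had 3 counts over all 6 libraries.

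Tnfrsf25 and Tnfrsf21 fell. Tnfrsf25 (GRCm38 chromosome 4, 152115934 to 152120119, plus strand), which encodes DR3, the receptor of TL1A, had 15.1, 4.03 and 11.5 CPM in controls and 0.874, 0.446 and 0.835 CPM in knockouts. Even control 2, the lowest control, was several times higher than any knockout. The log2 fold change was -3.81 (SE 0.59, adjusted p = 0.008977, edgeR), and -4.22 without control 2. Tnfrsf21 (GRCm38 chromosome 17, 43016555 to 43089189, plus strand), which encodes DR6, a death receptor studied in neurons and in brain endothelium, had 13.6, 16.7 and 17.8 CPM against 3.55, 2.45 and 3.01 CPM. Here control 2 lay between the other controls. The log2 fold change was -2.41 (SE 0.19, adjusted p = 0.001731, edgeR) and the same to 2 decimals without control 2 (adjusted p = 7.118e-05). Both calls held without any 1 library, with edgeR adjusted p of at most 0.0482 for Tnfrsf25 and 0.0149 for Tnfrsf21.

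Tnfrsf10b, the death receptor for TRAIL in mice, changed little. It had 128, 110 and 133 CPM in controls and 115, 117 and 108 CPM in knockouts, overlapping ranges with a log2 fold change of -0.13 (SE 0.09, adjusted p = 0.322, edgeR). Without control 2 it was lower by a small amount (-0.24, SE 0.05, adjusted p = 0.006391, edgeR).

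Of the 3 decoy receptors 2 were lower and 0 were higher by edgeR, also at an unadjusted p under 0.05 and with DESeq2 and limma voom. Of all genes tested by edgeR 11.7% were lower. Tnfrsf22 and Tnfrsf23 encode decoy receptors for TRAIL that lack a death domain. Tnfrsf22 had 61.6, 48.8 and 59.3 CPM in controls and 28.2, 24.5 and 29.6 CPM in knockouts, a log2 fold change of -1.04 (SE 0.12, adjusted p = 0.004488, edgeR). Tnfrsf23 had 145, 119 and 156 CPM against 98.5, 86.3 and 95.5 CPM, with a log2 fold change of -0.58 (SE 0.12, adjusted p = 0.0186, edgeR). All knockouts were below all controls for both, and the log2 fold changes were -1.17 and -0.72 without control 2. The Tnfrsf22 call held without any 1 library (edgeR adjusted p at most 0.0279), while that of Tnfrsf23 was lost without any 1 library except control 2 (up to 0.0836). Of their transcript sequences of 50 bases, 27.4% for Tnfrsf22 and 19.3% for Tnfrsf23 also occur in other genes, each other included. Reads of such sequences could have been left out or counted for another gene, and how far this changed the counts is not known.

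The third decoy, Tnfrsf11b, encodes osteoprotegerin, which binds RANKL and TRAIL. It had 106 CPM in control 2, 2.58 and 2.85 CPM in controls 1 and 3 and 6.73, 43.0 and 1.89 CPM in knockouts. Both groups thus held 1 library far above the rest, control 2 and knockout 2. The log2 fold change was -1.12 (SE 1.74, adjusted p = 0.675, edgeR) and turned to 2.62 (SE 1.24, adjusted p = 0.121) without control 2. No direction can be given for it.

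Among the other receptors 3 of 13 tested were higher, 10 did not pass and 0 were lower by edgeR. The share called was 23.1%, beside 24.7% of all genes tested. In this group 2 were lower at an unadjusted p under 0.05, 2 by DESeq2 and 0 by limma voom. Without control 2 the counts were 7 higher, 3 lower and 3 not passing, or 76.9% called, beside 50.3% of all genes. Tnfrsf1b (ENSMUSG00000028599; GRCm38 chromosome 4, 145213463 to 145246870, minus strand), the other TNF receptor, which has no death domain, had 51.5, 80.2 and 57.8 CPM in controls and 142, 133 and 142 CPM in knockouts. Knockouts lay close together and well above control 2, the highest control. Means were 63.2 ± 15.1 CPM and 139 ± 5.13 CPM (SD, n = 3), a log2 fold change of 1.13 (SE 0.17, adjusted p = 0.008358, edgeR), and of 1.31 without control 2. The call held without any 1 library (edgeR adjusted p at most 0.041).

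Tnfrsf9 and Cd40, both receptors of immune co-stimulation, also rose. Tnfrsf9, which encodes CD137, had 4.58, 12.5 and 5.15 CPM in controls and 25.7, 19.97 and 22.9 CPM in knockouts (GRCm38 chromosome 4, 150914562 to 150946102, plus strand). Its log2 fold change was 1.62 (SE 0.41, adjusted p = 0.0382, edgeR), and 2.20 without control 2, the highest control (adjusted p = 4.06e-05). Cd40, which activated endothelial cells use to respond to CD40 ligand, had 3.69, 2.94 and 3.40 CPM against 6.17, 5.19 and 5.74 CPM (GRCm38 chromosome 2, 165055627 to 165072948, plus strand). Its log2 fold change was 0.77 (SE 0.16, adjusted p = 0.0217, edgeR), and 0.65 without control 2. The groups did not overlap for either gene. Each lost its call without any 1 library except control 2 (edgeR adjusted p up to 0.120 for Tnfrsf9 and 0.0905 for Cd40).

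Tnfrsf8 (GRCm38 chromosome 4, 145267137 to 145315164, minus strand) encodes CD30, the receptor of the Tnfsf8 product. It had 32.2, 7.73 and 40.6 CPM in controls and 0.103, 0.558 and 3.56 CPM in knockouts. No knockout reached any control, but libraries differed widely within both groups, control 2 being the lowest control and knockout 3 the highest knockout. The log2 fold change was -4.26 (SE 1.20, adjusted p = 0.0511, edgeR), just outside the threshold. It passed without control 2 (-4.74, adjusted p = 0.001665), without knockout 3 (-6.34, adjusted p = 0.0415) and with DESeq2 (-4.27, adjusted p = 0.007258). Cd27, a receptor mostly of lymphocytes, was also just outside (-2.25, SE 0.63, adjusted p = 0.0505, edgeR) and passed without control 2 (-2.65, adjusted p = 0.003124), at levels of at most 2.11 CPM. DESeq2, and edgeR with RLE scaling, called it lower with all libraries.

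The remaining receptors with larger counts passed by edgeR only without control 2 or not at all. Relt, an orphan receptor, had 1.95, 14.4 and 2.30 CPM in controls and 7.86, 9.93 and 7.63 CPM in knockouts. Control 2 was above every knockout while the other controls were below them. The log2 fold change of Relt was 0.44 (SE 0.80, adjusted p = 0.719, edgeR), and 1.96 without control 2 (SE 0.19, adjusted p = 1.814e-04). Tnfrsf26, a mouse receptor next to the TRAIL decoys, had 184, 57.5 and 193 CPM against 130, 116 and 123 CPM. Control 2 was again on the far side of the knockouts, this time below them. The fitted change was -0.24 on the log2 scale (SE 0.44, adjusted p = 0.728, edgeR), and -0.65 without control 2 (SE 0.06, adjusted p = 1.919e-04).

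Ltbr, the receptor for lymphotoxin, had 90.1, 121 and 87.6 CPM in controls and 134, 141 and 128 CPM in knockouts, above every control. Its log2 fold change was 0.44 (SE 0.14, adjusted p = 0.0662, edgeR), and 0.56 without control 2 (adjusted p = 1.727e-04). DESeq2 called Ltbr higher with all libraries (adjusted p = 0.0395), as did edgeR with library size alone as the scale (0.038). Tnfrsf14, which encodes HVEM, had 4.64, 2.34 and 4.55 CPM against 6.63, 6.25 and 7.69 CPM (0.83, SE 0.29, adjusted p = 0.0901, edgeR). Tnfrsf12a, which encodes Fn14, the receptor of TWEAK, had 173, 128 and 188 CPM against 210, 230 and 201 CPM (0.39, SE 0.15, adjusted p = 0.122, edgeR). The groups did not overlap for Tnfrsf14 or Tnfrsf12a, and without control 2 both passed, at 0.54 and 0.21 (edgeR adjusted p = 0.0212 and 0.0432). Eda2r, a receptor for an isoform of ectodysplasin, had 104, 90.8 and 106 CPM against 97.8, 95.02 and 100.2 CPM, with a log2 fold change of -0.04 (SE 0.07, adjusted p = 0.755, edgeR). Its sign turned to 0.06 when libraries were scaled by their totals alone. Tnfrsf4 and Tnfrsf18, which encode OX40 and GITR, had at most 1.95 CPM in any library and did not pass in either fit. Tnfrsf18 overlaps Gm16008 on the other strand over 27.2% of its exonic bases.

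**Figure D3:**
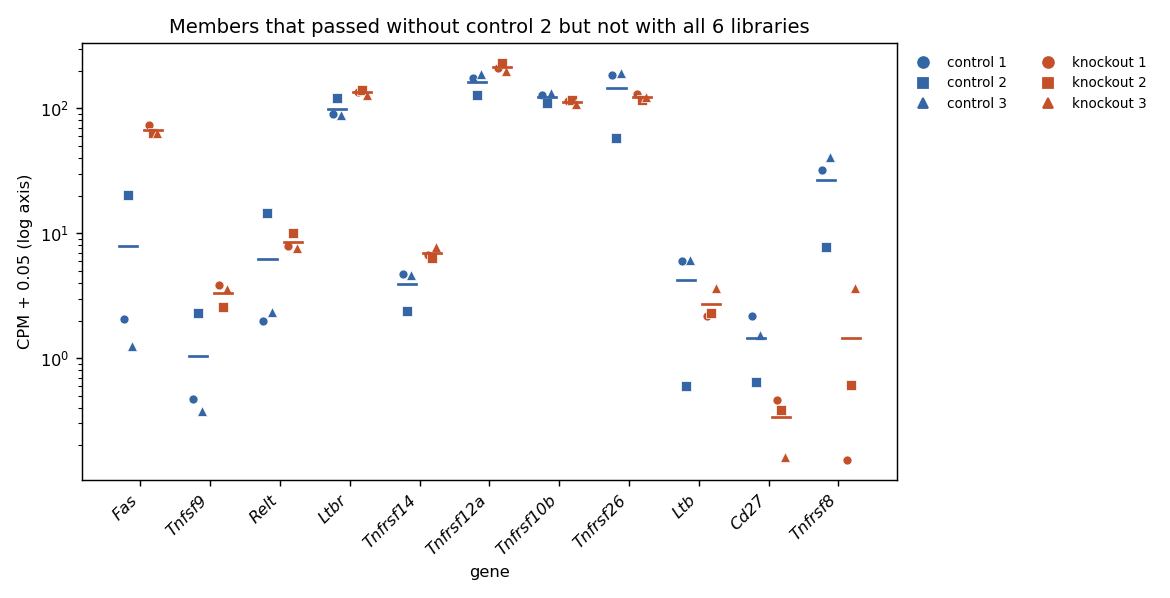
Level in each library (CPM + 0.05, log axis) of the 11 members that passed without control 2 but not with all 6 libraries; controls in blue, knockouts in orange, a marker shape per replicate number, lines at group means. Control 2 (blue square) lies toward or beyond the knockouts for Fas, Tnfsf9, Relt, Ltbr, Tnfrsf10b, Tnfrsf26, Ltb, Cd27 and Tnfrsf8, and away from them for Tnfrsf14 and Tnfrsf12a.

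Over the 32 tested members control 2 was the highest control for 13, the lowest for 15 and between the others for 4. Of the receptors that the low-count filter left out, Tnfrsf11a, which encodes RANK, had 6.81 CPM in control 2 and at most 0.781 CPM elsewhere. Tnfrsf13b had at most 0.308 CPM. Tnfrsf19 had 1, 0 and 0 counts in controls and 20, 9 and 9 in knockouts, a ratio of 38.2 (95% exact conditional binomial interval 6.45 to 1547, counting error only). With all genes of at least 10 summed counts in the fit, Tnfrsf19 passed (edgeR adjusted p = 0.0152), in a fit that called 17.3% of 18157 genes.

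Levels per kilobase of exon (CPM per kb) put Tnfrsf12a and Tnfrsf1a at the top of both groups. In controls Tnfrsf12a had 84.4 ± 16.3 CPM per kb and Tnfrsf1a 74.4 ± 9.19 (SD, n = 3), within each other's spread. Tnfrsf26 at 45.04 ± 23.6, Ltbr at 42.3 ± 7.80 and Tnfrsf23 at 35.4 ± 4.79 CPM per kb followed, again with overlapping ranges. In knockouts Tnfrsf12a and Tnfrsf1a had 111 ± 7.63 and 109 ± 4.27 CPM per kb, followed by Ltbr at 57.2 ± 2.63, Tnfrsf26 at 38.2 ± 2.28 and Tnfrsf1b at 36.3 ± 1.34. The level of 10 members was at least 10 CPM per kb in controls and that of 9 in knockouts, all of them receptors. Tnfrsf11b was among the 10 only through control 2 and had 0.964 CPM per kb as the mean of controls 1 and 3. Fas was at rank 16 of 40 in controls, or at rank 23 without control 2, where its mean was 0.778 in place of 3.78 CPM per kb. It was at rank 6 in knockouts, with 32.4 ± 2.61 CPM per kb. Tnfsf8 was at rank 38 in controls (rank 40 without control 2) and at rank 13 in knockouts, where, at 6.33 ± 0.893 CPM per kb, it was within the spread of Tnfsf12, the leading ligand, at 6.48 ± 0.962.

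Set side by side by ligand and receptor, the partners did not all move one way. For CD30, the ligand Tnfsf8 was higher and its receptor Tnfrsf8 was lower in each knockout than in each control, though the receptor passed only without control 2 or knockout 3 or by DESeq2. For DR3, the ligand Tnfsf15 was higher and the receptor Tnfrsf25 lower. For TRAIL, the ligand Tnfsf10 and the decoys Tnfrsf22 and Tnfrsf23 were lower, and Tnfrsf10b passed, as lower, only without control 2. For TNF, both receptors, Tnfrsf1a and Tnfrsf1b, were higher and the ligand did not pass. For CD137, the receptor Tnfrsf9 was higher, and the ligand Tnfsf9 passed, as higher, only without control 2. These pairs were put together after the values were seen.

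Many members lie near another member in the genome. Within gaps of at most 100 kb, 21 of the 40 formed 8 clusters in GRCm38. Tnfsf15 and Tnfsf8, both higher, are 86.2 kb apart on chromosome 4. Tnfrsf1b, which was higher, and Tnfrsf8, whose knockout levels were below those of controls, are 20.3 kb apart on chromosome 4 and both on the minus strand. On chromosome 7, Tnfrsf26 (143607659 to 143628722), Tnfrsf22 (143634806 to 143649661) and Tnfrsf23 (143665809 to 143685872) lie in a row on the minus strand. All 3 were lower without control 2, and 2 of them with all libraries. On chromosome 6, Cd27, Ltbr and Tnfrsf1a are separated by 69.6 and 35.5 kb, and the first had a negative and the others a positive log2 fold change.

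Promoters of 9 called members, those averaging 5 CPM or more, were searched for short forms of the ETS motif (ACCGGAAG or ACAGGAAG) and of the NF-kB motif (GGAATTTCC, GGACTTTCC or GGGATTTCC) on both strands. RefSeq windows of 300 bases, from 250 before to 50 after a transcript start in GRCm38.p6, were at hand for 8 of them, 10 windows in all. Of all 32851 such windows 5.77% hold an ETS form and 0.974% an NF-kB form. One member, Tnfrsf1a, held an ETS form and one, Tnfrsf9, an NF-kB form, and 7 of the 9 had neither or no window. Tnfrsf9 had 2 windows, and the match lies only in the window that begins at base 150927749. That is inside the gene, which runs from 150914562 to 150946102 in GENCODE M21. The Tnfrsf1a window, 125349473 to 125349772, likewise lies inside its gene, which runs from 125349362 to 125362484 there. The bases before the start are shown for these 2 receptors, both higher in the knockout, because they hold the matches. Capitals mark the match, at -10 to -3 on the minus strand for Tnfrsf1a (chr6:125349473-125349722, plus strand) and at -42 to -34 for Tnfrsf9 (chr4:150927749-150927998, plus strand).
Tnfrsf1a: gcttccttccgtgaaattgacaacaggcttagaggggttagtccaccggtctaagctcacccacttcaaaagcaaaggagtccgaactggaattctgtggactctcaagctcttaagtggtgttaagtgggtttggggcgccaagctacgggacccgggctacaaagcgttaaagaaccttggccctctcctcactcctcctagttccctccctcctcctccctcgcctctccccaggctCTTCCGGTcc
Tnfrsf9: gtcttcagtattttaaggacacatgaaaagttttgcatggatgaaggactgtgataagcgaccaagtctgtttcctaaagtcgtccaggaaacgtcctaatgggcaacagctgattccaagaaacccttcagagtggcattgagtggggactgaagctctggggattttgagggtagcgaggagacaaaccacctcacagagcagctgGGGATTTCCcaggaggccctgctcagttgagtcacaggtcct
A match describes these letters only, and no binding was measured.

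Genes that work with the superfamily were counted in 4 lists of known pathway members, 71 genes, all of them tested. With all libraries 31 were higher and 3 lower, 47.9% of them, beside 24.7% of all genes. Without control 2, 46 were higher and 11 lower, 80.3% of them, beside 50.3% of all genes. Since these libraries had been examined for such genes earlier, the lists are no independent evidence of a direction.

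Of 20 adaptors and cell death genes, 5 were higher and 2 lower, with a median log2 fold change of 0.12, and without control 2 the counts were 8 and 7. The shares called were 35% and 75%, beside 24.7% and 50.3% of all genes. Birc3 and Birc2, which encode cellular inhibitors of apoptosis that bind TRAF2, had the largest changes among the 7 called. Traf4 had a log2 fold change of 1.56 but did not pass with all libraries (edgeR adjusted p = 0.0537); it passed without control 2 (2.21). Birc3 had 26.2, 27.6 and 28.3 CPM in controls and 68.8, 77.1 and 73.3 CPM in knockouts (log2 fold change 1.42, SE 0.07, adjusted p = 0.0006232, edgeR). Birc2 had 33.5, 32.2 and 34.4 CPM against 73.5, 85.5 and 76.2 CPM (1.23, SE 0.08, adjusted p = 0.001165, edgeR). Control 2 lay with its own group for both, and without it the log2 fold changes were 1.39 and 1.17. The 2 lower genes, named after their values were seen, were Traf1 (-0.97) and Ripk1 (-0.51). Both calls were lost without any 1 library except control 2, with library size alone as the scale and with a minimum of 10 summed counts.

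Of 23 kinases and NF-kB genes, 9 were higher and 0 lower by edgeR, with 0 lower also at an unadjusted p under 0.05 and by DESeq2 and limma voom; without control 2, 13 were higher and 3 lower. The median log2 fold change was 0.21. The share called was 39.1% with all libraries and 69.6% without control 2, beside 24.7% and 50.3% of all genes. Rel, an NF-kB subunit, had 6.95, 9.58 and 5.15 CPM in controls and 35.2, 38.4 and 35.9 CPM in knockouts (2.33, SE 0.23, adjusted p = 0.002857, edgeR). Nfkbie, an inhibitor of NF-kB, had 16.1, 11.4 and 14.03 CPM against 38.2, 48.2 and 46.1 CPM (1.67, SE 0.16, adjusted p = 0.002692, edgeR). The 9 higher genes held both subunits and inhibitors: Nfkbia, Nfkbib and Tnfaip3, named after their values were seen, restrain NF-kB as Nfkbie does. Rela, another NF-kB subunit, did not pass (-0.27, edgeR adjusted p = 0.275) and was lower without control 2 (-0.47, adjusted p = 0.001557).

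Of 8 genes of shedding and processing, 3 were higher and 1 lower, with a median of 0.25, and without control 2 the counts were 5 and 1. The shares called were 50% and 75%, beside 24.7% and 50.3% of all genes. Rhbdf2, which encodes iRhom2, a partner of the TNF-cleaving protease ADAM17, had 55.3, 41.4 and 56.3 CPM in controls and 105, 104 and 113 CPM in knockouts (1.07, SE 0.13, adjusted p = 0.004787, edgeR). Sppl2b, a protease that cleaves TNF within the membrane, had 46.7, 40.5 and 49.2 CPM against 35.8, 31.9 and 36.4 CPM (-0.39, SE 0.10, adjusted p = 0.0411, edgeR). That call was lost without any 1 library except control 2 (edgeR adjusted p up to 0.1405), with library size alone as the scale and with a minimum of 10 summed counts.

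Of 20 genes that TNF induces in endothelial cells, 14 were higher, with a median log2 fold change of 1.76. These are 70%, beside 13.1% of all genes tested that were higher. Csf2, a growth factor of myeloid cells, is among the 14 with 0 counts in the controls and 55 in the knockouts, at least 18.4-fold higher against a floor of 3 counts over the controls. By edgeR 0 were lower, with 0 also at an unadjusted p under 0.05 and by DESeq2 and limma voom. Ccl20, a chemokine, had 0.316, 1.31 and 0.329 CPM in controls and 243, 309 and 210 CPM in knockouts (8.60, SE 0.55, adjusted p = 0.001157, edgeR). Cxcl10, a chemokine also induced by interferon, had 0.527, 0 and 0.274 CPM against 3.75, 17.6 and 9.97 CPM (5.25, SE 1.02, adjusted p = 0.0177, edgeR); the call was lost without control 3, knockout 2 or knockout 3 (up to 0.0724) and by limma voom (0.0700). Without control 2 all 20 were higher, beside 25.5% of all genes. For Sele and Il6 the sign turned, from log2 fold changes of -0.52 and -1.01 with all libraries to 1.16 and 2.41 without control 2. Of the 6 that did not pass with it, Sele, Selp, Il6, F3 and Bcl3 were highest among the controls in control 2, and Vcam1 was lowest there.

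**Figure D4:**
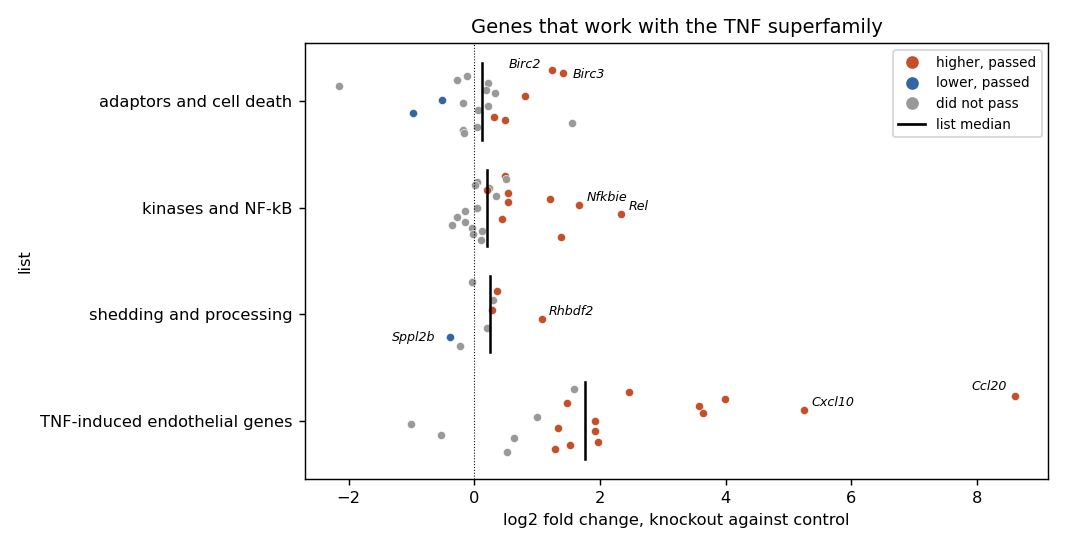
Log2 fold change (knockout against control, all 6 libraries) of each gene in the 4 pathway lists; points are genes, coloured by whether they passed the edgeR test, and the black bar is the median of the list. Csf2, with 0 counts in all controls, is not drawn but is counted in the median of the TNF-induced genes, 1.76, which is 1.59 without it and the highest of the 4 either way.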

How the data were processed

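Polyadenylated RNA of 6 libraries (3 control, 3 knockout) was measured. The whole-number counts per gene were deposited by the authors for 52636 Ensembl identifiers and used as deposited; FastQC 0.11.5, STAR 2.7.6a and the build GRCm38 were used, per the submitters' processing notes. Which program counted the reads, with which strand setting and annotation, is not given in the sources used here, and the labels' protocols name an unstranded and a stranded TruSeq kit without saying which library had which. Overlapping genes and genes with shared sequence could therefore have been split or merged, and this is stated for the members it touches. Symbols, positions and exon overlaps came from GENCODE M21 (GRCm38): 52489 identifiers matched, and the 147 others took up no more than 0.0061% of any library. The table had 0 rows naming no gene and 0 columns of other samples.

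Groups and replicate numbers came from the sample titles. All pairs of libraries differed by more than sampling noise (lowest chi-square per degree of freedom 6.28), and each was kept as a replicate. In R 4.3.3, edgeR 4.0.16 was run with filterByExpr by group (13901 genes kept), TMM scaling, glmQLFit and glmQLFTest (two-sided, no covariate). Adjustment was by Benjamini-Hochberg over all tested genes, with a call at an adjusted p under 0.05. CPM used TMM-scaled library sizes, and CPM per kb divided them by the exonic length. The standard error was the log2 fold change divided by the square root of F. Exact two-sided permutation tests of single CPM values cannot go below 0.1 with 3 against 3 libraries, the value that every member with groups that do not overlap had. For tested genes with 1 to 3 counts in a group the ratio of counts is given with a 95% exact conditional binomial interval. Intervals and floors (3 counts over a group) cover counting error only, since reads without molecular identifiers are not independent molecules. The edgeR step was tested on simulated counts.

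The members, pathway lists and marker lists were chosen with earlier results of these data known. Values are given for Erg, Fli1, every called member, every tested member averaging 5 CPM or more, and the 2 called genes of each pathway list with the largest absolute log2 fold change at that mean. Tnf, Tnfsf9, Ltb, Cd27, Tnfsf11, Tnfrsf11a, Tnfrsf19, Edaradd, Rela, Traf4 and Csf2 were added after their values were seen. Alternatives were RLE scaling, library size only, DESeq2 1.42.0, limma 3.58.1 (voom), a minimum of 10 summed counts, a minimum of 1 CPM in 3 libraries, a block for the replicate number, leaving out each library, and an adjusted p under 0.01. Protein sequences were not used here.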

Additional observations from a re-analysis of the deposited data

How the results depend on the processing

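Counts of calls below are edgeR's at an adjusted p under 0.05 unless stated. The share of all genes called also moved with the setting. It was 24.7% with all libraries, 50.3% without control 2 and 17.3% with a minimum of 10 summed counts. Shares of all genes under the other settings are not given here, so these counts are not read as a trait of the members. Leaving out 1 library at a time gave 3 to 13 members higher (7 with all libraries), 3 to 10 lower (5), 21 to 46 pathway genes higher (31) and 0 to 11 lower (3); the highest value in each case was that without control 2. At an adjusted p under 0.01, 3 members were higher and 3 lower, and 20 pathway genes were higher and 0 lower. Pathway genes lower were 0 with libraries scaled by their totals alone (3 at an unadjusted p under 0.05) and 0 with a minimum of 10 summed counts (5 unadjusted). DESeq2 and limma voom gave 3 and 2. With the replicate number as a block, 4 members were higher (Tnfsf8, Edar, Tnfrsf1a and Tnfrsf1b) and 4 lower, and 23 pathway genes were higher and 0 lower (5 unadjusted). The block ended the calls of Cd40, Tnfrsf9, Tnfsf15, Tnfsf10, Sppl2b and Cxcl10 among the genes named by rule. The numbers share no stated animal or culture, and same-numbered libraries deviated together with correlations of -0.17, 0.16 and 0.25, so the numbers were not taken to pair the samples; of the 6 libraries not every one correlated best with its own number. Signs turned for Eda2r (0.055 with library size only), for Tnfrsf11b (2.62 without control 2, range -3.10 to 2.62 over the libraries left out) and for Tnfrsf26 (5e-04 without control 3, range -0.65 to 5e-04). The sign of Eda turned too, from 0.34 with all libraries to -0.07 without control 1 and -0.33 without knockout 2. None of these passed with 6 libraries, and the cause was not tested. Tnfsf8, Tnfrsf1b, Tnfrsf21, Tnfrsf22 and Tnfrsf25 were called under every alternative run. With few counts in Tnfsf15, Edar, Tnf and Tnfrsf19, depth limits what can be said of their size of change.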
